A study of Homo sapiens with 18 samples.

Results

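The interferon-stimulated genes described here are 47 genes listed by symbol as genes that interferons induce, and all 47 were found among the 58302 genes of the deposited tables. RNA was sequenced from 3 human lung cancer cell lines, PC-9 and HCC827, which carry a deletion in exon 19 of EGFR, and EBC-1, which has amplified MET. In each line, cells stably carrying a lentiviral shRNA against SYK (shSYK), a single clone of shRNA in every line, were compared with negative control cells (nc), at 3 libraries per group and 18 in all. With a single clone, loss of SYK and other effects of that shRNA cannot be told apart, and responses to SYK knockdown below carry this limit. The labels do not say whether the 3 libraries of a group came from separate cultures, so p-values measure only the spread between libraries, which may be technical. The labels name no interferon and no drug for any group. The question asked here was at what level each line expressed these genes and how each gene responded to SYK knockdown in each line. Levels are FPKM, reads scaled by gene length and by a denominator per library, and gene positions are those of the deposited tables (hg38).

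Interferons are secreted proteins that bind receptors on the cell surface and activate the kinases JAK1, JAK2 and TYK2, which phosphorylate transcription factors such as STAT2. The complex ISGF3, which holds STAT2 and IRF9, binds the interferon-stimulated response element (ISRE) in promoters, whereas interferon gamma acts mainly through the gamma-activated site (GAS). The genes induced in this way include sensors of viral RNA, enzymes and binding proteins that block viral RNA, membrane proteins that block viral entry or release, and the transcription factors of the pathway themselves, so that many cells keep a low level of them without infection. Many tumor lines express such genes constitutively, at levels that differ widely between lines.

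The libraries held between 7920099 and 15729103 reads on genes, and SYK in shSYK cells was at 52.3% (EBC-1), 32.1% (PC-9) and 32.9% (HCC827) of its nc mean, with every shSYK library below every nc library. Among the replicate libraries, nc replicate 1 of PC-9 stood apart, with a Pearson correlation of 0.960 to nc replicate 2 on log2(FPKM + 1), against 0.981 or more for every other pair of replicates. For PC-9, called genes and called differences, and the limma counts of interferon-stimulated genes, are therefore also given without it. All 5 epithelial markers (EPCAM, KRT8, KRT18, KRT19 and CDH1) were at 31.0 FPKM or more in every library, and the 4 leukocyte markers (PTPRC, CD3E, CD68 and CD14) were at 1.62 FPKM or less. Of the fibroblast markers, COL1A2 and COL3A1 were at 0.0463 FPKM or less and COL1A1 at 8.29 or less. The endothelial marker PECAM1 was above 1 FPKM in PC-9 only, at 14.4, 12.7 and 13.1 FPKM in nc and 4.28, 5.34 and 5.31 in shSYK libraries, beside CDH5 at 2.16 to 2.57 FPKM, and its part in the PC-9 results below was not tested. In bulk RNA, fewer cells expressing a gene and less RNA per cell cannot be told apart.

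HCC827 expressed the most interferon-stimulated genes at the highest level of the 3 lines. The summed FPKM of the 47 genes was between 623 and 733 in the nc libraries of HCC827, against 324 to 338 in those of EBC-1 and 169 to 217 in those of PC-9. Of the 40 genes with a mean of at least 1 FPKM in at least 1 line, 28 had all 3 nc libraries of HCC827 above all 6 of the other lines, 3 (IFIT2, IRF1 and UBE2L6) were highest in this sense in EBC-1, and 1 (GBP2) in PC-9. Over all 14636 genes expressed at that level in some line, the shares were 21.1% for HCC827, 24.1% for EBC-1 and 18.3% for PC-9. The tables of the lines were scaled separately, so these levels are set side by side without a test, and after rescaling every library to an equal sum (TPM) the count for HCC827 was 24.

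The widest gaps were in IFI27, a small membrane protein, and BST2 (tetherin), which holds budding viruses at the cell surface. IFI27 read 38.1, 36.8 and 49.7 FPKM in the nc libraries of HCC827, 0.157, 0.153 and 0.123 in those of EBC-1 and 0.0583, 0.0415 and 0.0463 in PC-9. BST2 read 91.7, 94.7 and 101 FPKM in HCC827, 7.24, 5.07 and 4.89 in PC-9 and 0.972, 0.990 and 0.682 in EBC-1. For both genes each HCC827 library lay above every library of the other lines by an order of magnitude or more. ISG15, a ubiquitin-like modifier, was at 100.1 ± 13.5 FPKM (SD, n = 3) in HCC827, 21.7 ± 1.27 in EBC-1 and 13.4 ± 4.39 in PC-9. IFITM3, which blocks viral entry, had the highest FPKM of the 47 genes in HCC827 (112 ± 12.4) and the second in EBC-1 (62.1 ± 5.54), and in PC-9 it was at 41.9 ± 9.67. UBE2L6, the conjugating enzyme for ISG15, ran the other way, with 91.1 ± 4.45 FPKM in EBC-1 against 43.3 ± 5.91 in HCC827 and 41.3 ± 7.82 in PC-9, and the last 2 overlapped. At the low end, 7 genes (MX2, RSAD2, IRF9, HERC5, XAF1, CMPK2 and TRIM22) had a mean under 1 FPKM in all 3 lines and were not tested. RSAD2 (viperin) and CMPK2 were listed at 0 reads in all 6 PC-9 libraries, which allows up to 3 reads per library by counting error. IRF9, the DNA-binding subunit of ISGF3, was at 0.446 ± 0.0469 FPKM in HCC827, 0.307 ± 0.107 in EBC-1 and 0.159 ± 0.0565 in PC-9.

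**Figure D1:**
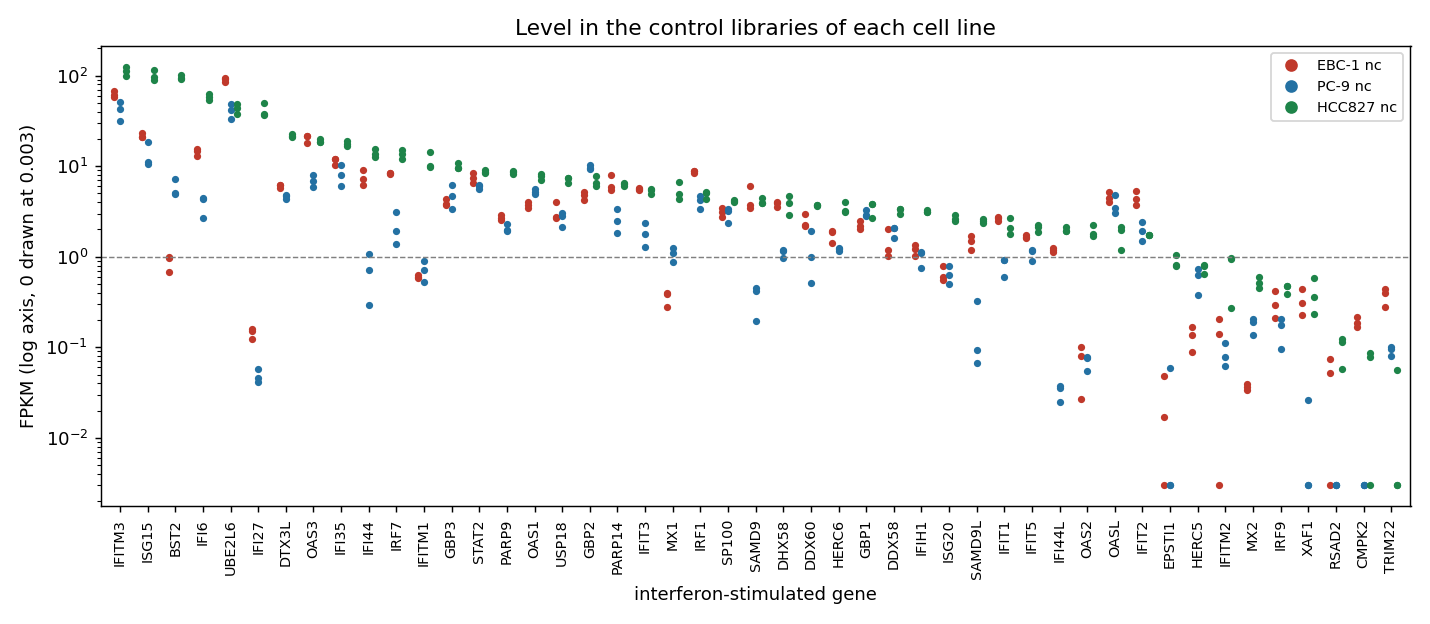
FPKM of the 47 interferon-stimulated genes in the 3 nc libraries of each line (points, log axis, genes ordered by their HCC827 mean, 0 drawn at 0.003, dashed line at the 1 FPKM used as the filter). HCC827 points are the highest for most genes, by the widest gaps for IFI27 and BST2, and the genes at the right lie under the filter in every line.

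Most of the promoters examined, but not all, held the core of the ISRE. RefSeq promoter windows of 300 bases (250 before to 50 after a start, GRCh38.p14) were found for 37 of the 47 genes, and were not given for IFIT2, IFITM2, MX2, OAS2, OASL, IRF7, DHX58, USP18, TRIM22 and GBP2. The core GAAANNGAAA, searched on both strands, occurred in at least 1 window of 25 of the 37 genes (67.6%), against 4.38% of the 27305 genes with a window and 3.57% of 35116 windows. The GAS core TTCNNNGAA, which reads the same on both strands, occurred in 12 of the 37 (32.4%), against 9.38% of genes and 7.66% of windows. Since the genes were listed for their induction by interferon, this describes the list and tests nothing. The stretches printed here come from windows of 9 of the 25 genes with an ISRE core, with the cores in capitals. Each is written on the strand of its gene, so that a core on the opposite strand appears as its reverse complement TTTCNNTTTC. IFIT3 had another window with the core, which is not shown.
IFITM1, chr11:313980-314043, plus strand: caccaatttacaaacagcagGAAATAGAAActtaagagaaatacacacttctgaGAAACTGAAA
SAMD9, chr7:93118086-93118135, minus strand: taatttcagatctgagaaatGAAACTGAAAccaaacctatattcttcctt
DTX3L, chr3:122564312-122564341, plus strand: ggagggacctccagggaagcGAAACTGAAA
IFIT3, chr10:89327821-89327904, plus strand: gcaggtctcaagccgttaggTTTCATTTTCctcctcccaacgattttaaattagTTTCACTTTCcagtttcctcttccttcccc
IFI44L, chr1:78620264-78620404, plus strand: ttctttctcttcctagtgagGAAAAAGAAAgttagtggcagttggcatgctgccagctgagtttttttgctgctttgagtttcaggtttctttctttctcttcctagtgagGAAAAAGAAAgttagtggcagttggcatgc
OAS3, chr12:112938311-112938473, plus strand: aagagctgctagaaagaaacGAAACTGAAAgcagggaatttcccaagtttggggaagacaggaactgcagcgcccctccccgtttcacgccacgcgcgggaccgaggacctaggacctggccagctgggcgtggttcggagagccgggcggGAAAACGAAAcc
DDX60, chr4:168318776-168318860, minus strand: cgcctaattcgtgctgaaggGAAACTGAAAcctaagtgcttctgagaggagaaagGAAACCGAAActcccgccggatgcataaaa
IFI6, chr1:27672256-27672368, minus strand: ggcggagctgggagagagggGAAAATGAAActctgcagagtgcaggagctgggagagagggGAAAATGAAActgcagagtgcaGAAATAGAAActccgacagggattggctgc
BST2, chr19:17405725-17405780, minus strand: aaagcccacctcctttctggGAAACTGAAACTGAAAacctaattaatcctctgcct

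IFITM1, SAMD9 and DTX3L are shown because their responses were opposite in EBC-1 and HCC827, and the single core of DTX3L is the same stretch of DNA that lies in the window of PARP9, its neighbor transcribed in the other direction. IFIT3 and IFI44L are shown because they rose in both of those lines, IFI6 because it fell in both, and OAS3, BST2 and DDX60 because they fell in 1 line each. IFI44L held 2 copies of a stretch with the core, IFI6 held 3 cores, and in BST2 2 cores overlapped. The 12 genes with a window but no core were DDX58, OAS1, STAT2, IRF1, IRF9, HERC6, SAMD9L, SP100, UBE2L6, IFI35, XAF1 and CMPK2, while GBP1 and GBP3 had a core and are not printed. A match is a description of these letters and not evidence of binding. Of the genes with a window, an ISRE core was found in EBC-1 for 10 of the 13 that rose, 1 of the 2 that fell and 7 of the 12 that passed the test in neither direction. The counts in HCC827 were 4 of the 5 that rose, 8 of the 11 that fell and 11 of the 16 that passed in neither direction.

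SYK knockdown was followed by rises of more interferon-stimulated genes than falls in EBC-1 and by falls of more than rises in HCC827. In PC-9, where only 253 of all 12089 genes passed the test below, 0 interferon-stimulated genes rose and 3 fell (10.7% of the 28 tested). Genes with a mean of at least 1 FPKM over the 6 libraries of a line were tested with limma on log2(FPKM + 1), and a gene is said to have risen or fallen where its Benjamini-Hochberg adjusted p over all genes tested was under 0.05. In EBC-1, 33 of the 47 genes were tested, of which 14 rose and 4 fell, against 23.1% and 21.6% of all 12430 genes tested. In HCC827, 40 were tested, of which 6 rose and 13 fell, against 17.2% and 20.7% of 11999 genes. These counts include genes with the mean of 1 group under 1 FPKM, which passed the filter through the other group. They were IFITM1 among the EBC-1 rises, and IFITM2 among the rises and OASL among the falls in HCC827. In PC-9, 28 were tested, of which 0 rose and 3 fell, against 0.678% and 1.41% of 12089 genes, and at an unadjusted p under 0.05 the limma counts were 1 up and 6 down. With limma-voom on reads recovered from the FPKM, 0 rose and 4 fell in PC-9, against 120 and 365 of all genes. Without nc replicate 1 the limma counts were 0 up and 3 down, against 298 and 326 of all genes. Leaving out other PC-9 libraries gave 5 falls without nc replicate 2, against 343 of all genes. It gave 0 falls without nc replicate 3, against 8 of all genes, or without any 1 shSYK library. The 6 rises in HCC827 were 3 without nc replicate 1 or shSYK replicate 3 and 2 without shSYK replicate 2. Counts of all genes called with 1 library left out are given in the closing section. The median log2 fold change of the tested genes was 0.25 (EBC-1), -0.16 (PC-9) and -0.074 (HCC827), against 0.0090, 0.0088 and -0.0053 over all genes tested. The list was chosen with earlier results of these data known, so its shares and medians describe the list and test nothing.

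Counted without a model, the shSYK libraries were all above the nc libraries for 16 of the 33 genes in EBC-1 and all below for 5, against 29.7% and 27.2% of all genes tested. The same counts were 8 and 16 of 40 in HCC827, against 24.7% and 27.6%, and 1 and 8 of 28 in PC-9, against 11.4% and 12.3%. The split of rises and falls moved with the scale of the libraries. After TPM rescaling, which moved the median of all genes in EBC-1 to 0.12, 17 genes rose and 4 fell in EBC-1, and 8 rose and 11 fell in HCC827. Among all called genes, the share of rises went from 51.7% to 67.9% in EBC-1 and from 45.4% to 56.6% in HCC827. Of the 40 genes tested in at least 1 line, 28 passed with limma in some line, against 54.8% of all 14636 such genes, and 12 passed in 2 lines, against 15.5%. In all 3 lines 0 passed (3 at an unadjusted p under 0.05 and 1 with limma-voom), against 0.478%, and 12 were tested in some line without passing. GBP genes, SAMD9 and SAMD9L, IFIT3, IFI44 and IFI44L, and the sensors DDX58 and IFIH1 made up most of the rises in EBC-1, and the falls in HCC827 were spread over every role except the IFIT and GBP families. Folds below are ratios of mean FPKM, whereas log2 fold changes and standard errors are on the log2(FPKM + 1) scale, which understates changes of genes near the filter.

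**Figure D2:**
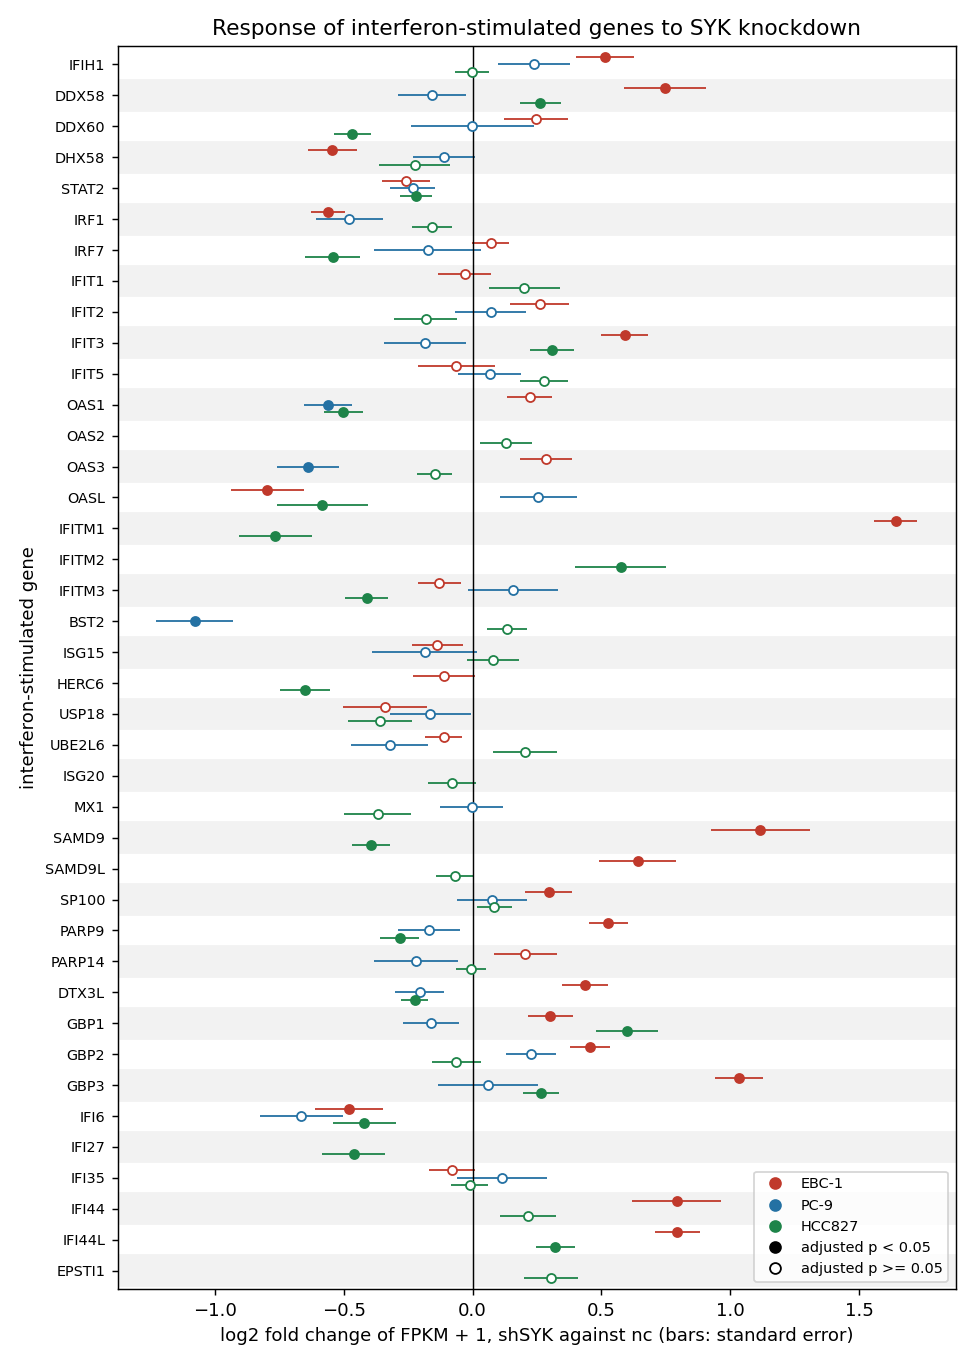
log2 fold change of FPKM + 1, shSYK against nc, with its standard error, for the 40 interferon-stimulated genes tested in at least 1 line, ordered by role (filled: limma adjusted p under 0.05, open: not). EBC-1 points lie mostly right of 0 and reach 1.64 for IFITM1, HCC827 points lie between -0.77 and 0.60, and the lowest point is BST2 in PC-9 at -1.08.

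The cytoplasmic sensors of viral RNA responded in both directions in EBC-1. DDX58 (RIG-I; ENSG00000107201, chr9:32455705-32526324) read 1.2, 2.02 and 1.03 FPKM in nc and 3.12, 2.59 and 3.31 in shSYK libraries of EBC-1. The groups did not overlap, and DDX58 rose 2.12-fold (log2 fold change 0.75 ± 0.16 SE, limma adjusted p = 0.00818). In HCC827 the values were 3.34, 2.95 and 3.39 in nc and 3.68, 4.28 and 4.27 in shSYK libraries, again without overlap. The rise was 1.26-fold (log2 fold change 0.26 ± 0.081 SE, limma adjusted p = 0.0369), and its call was lost without any 1 nc library or shSYK replicate 2 or 3 (limma adjusted p between 0.054 and 0.114), and without the filter, with GC and length trends removed (0.14 on the log2 scale) or in the fit of 18 libraries (limma adjusted p between 0.0959 and 0.24). The PC-9 libraries overlapped, with 2.08, 2.09 and 1.61 in nc and 1.501, 1.98 and 1.40 in shSYK (log2 fold change -0.16, limma adjusted p = 0.647). IFIH1 (MDA5; ENSG00000115267, chr2:162267079-162318703), which detects long double-stranded RNA, read 1.22, 1.36 and 1.01 in nc and 2.11, 1.89 and 2.42 in shSYK libraries of EBC-1. All shSYK libraries were above the nc libraries, a 1.79-fold rise (log2 fold change 0.51 ± 0.11 SE, limma adjusted p = 0.00873). Its HCC827 libraries lay together, at 3.15, 3.16 and 3.26 in nc and 3.12, 3.07 and 3.36 in shSYK (log2 fold change -0.0026, limma adjusted p = 0.979). DHX58 (LGP2), a modulator of both sensors, read 4.06, 3.54 and 3.93 in nc and 2.61, 2.34 and 2.03 in shSYK libraries of EBC-1, without overlap. It fell to 60.5% of its nc mean (log2 fold change -0.54 ± 0.095 SE, limma adjusted p = 0.00359) and passed in no other line.

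DDX60 (ENSG00000137628, chr4:168216293-168318807), a helicase associated with RIG-I signaling, read 3.67, 3.73 and 3.69 FPKM in nc and 2.24, 2.34 and 2.63 in shSYK libraries of HCC827. The nc libraries lay close together and the shSYK libraries all below them, and DDX60 fell to 65.0% of its nc mean (log2 fold change -0.47 ± 0.073 SE, limma adjusted p = 0.00298). The call was lost in the fit of 18 libraries (limma adjusted p = 0.0553). In EBC-1 it read 2.24, 3.00 and 2.20 in nc and 2.74, 3.00 and 3.63 in shSYK, with overlap (log2 fold change 0.25, limma adjusted p = 0.141). PC-9 nc libraries spread from 0.519 to 1.92 and enclosed the shSYK libraries (log2 fold change -0.00055, limma adjusted p = 1).

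The transcription factors of the response fell where they passed the test. IRF1, induced mainly by interferon gamma, read 8.93, 8.87 and 8.32 FPKM in nc and 5.39, 5.59 and 5.74 in shSYK libraries of EBC-1. No shSYK library reached the nc libraries, and IRF1 fell to 64.0% of its nc mean (log2 fold change -0.56 ± 0.066 SE, limma adjusted p = 0.000798). Its groups did not overlap in PC-9 either, at 4.63, 3.33 and 4.24 and 2.46, 2.396 and 3.03, with log2 fold change -0.48, limma adjusted p = 0.134, and they overlapped in HCC827 (log2 fold change -0.16, limma adjusted p = 0.156). IRF7 (ENSG00000185507, chr11:612553-615999), which amplifies interferon induction, read 13.6, 11.95 and 14.97 in nc and 8.65, 7.98 and 10.3 in shSYK libraries of HCC827. Every shSYK library lay below every nc library, and IRF7 fell to 66.4% of its nc mean (log2 fold change -0.54 ± 0.11 SE, limma adjusted p = 0.00717), a call lost with GC and length trends removed (-0.31 on the log2 scale) (limma adjusted p = 0.0566). In EBC-1 it read 8.11, 8.40 and 8.45 and 9.30, 9.04 and 8.06, with overlap (log2 fold change 0.070, limma adjusted p = 0.464), and in PC-9 3.13, 1.93 and 1.39 and 2.15, 1.48 and 1.57 (log2 fold change -0.17, limma adjusted p = 0.765). STAT2 had every shSYK library below the lowest nc library in all 3 lines, at 81.1% (EBC-1), 82.6% (PC-9) and 84.4% (HCC827) of the nc mean. STAT2 passed the test in HCC827 alone (log2 fold change -0.22 ± 0.062 SE, limma adjusted p = 0.0291), against limma adjusted p = 0.0525 in EBC-1 and 0.255 in PC-9. The STAT2 call in HCC827 was lost without any 1 nc library or shSYK replicate 1 or 3 (limma adjusted p between 0.0551 and 0.0856), and without the filter, with TPM rescaling, with quantile normalization, with limma-voom or with GC and length trends removed (-0.14 on the log2 scale) (limma adjusted p between 0.057 and 0.124).

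Of the IFIT family, whose proteins bind viral RNA, IFIT3 alone passed the test. IFIT3 (ENSG00000119917, chr10:89327894-89340971) read 5.49, 5.67 and 5.72 FPKM in nc and 7.93, 8.90 and 10.2 in shSYK libraries of EBC-1. The nc libraries lay close together, all shSYK libraries were above them, and IFIT3 rose 1.60-fold (log2 fold change 0.59 ± 0.092 SE, limma adjusted p = 0.00237). HCC827 libraries read 5.45, 4.87 and 5.63 in nc and 7.51, 6.87 and 6.10 in shSYK, without overlap. IFIT3 rose 1.28-fold there (log2 fold change 0.31 ± 0.085 SE, limma adjusted p = 0.0255). This call was lost without nc replicate 1 or 2 or shSYK replicate 1 or 2 (limma adjusted p between 0.0533 and 0.0746), and without the filter, with GC and length trends removed or in the fit of 18 libraries (limma adjusted p between 0.0682 and 0.0738). The PC-9 groups overlapped, at 1.28, 2.35 and 1.78 and 1.24, 1.59 and 1.49 (log2 fold change -0.19, limma adjusted p = 0.652). IFIT1, IFIT2 and IFIT5 had log2 fold changes from -0.063 to 0.26 in EBC-1 and from -0.18 to 0.28 in HCC827, with IFIT5 in HCC827 at limma adjusted p = 0.0502. IFIT genes share sequence, and reads that fit more than 1 of them are uncertain.

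The OAS family, enzymes that make the second messenger activating RNase L, gave 2 of the 3 PC-9 falls. OAS1 (ENSG00000089127, chr12:112906777-112933222) read 5.23, 4.97 and 5.66 FPKM in nc and 3.46, 3.18 and 3.13 in shSYK libraries of PC-9. It fell there to 61.6% of its nc mean (log2 fold change -0.56 ± 0.093 SE, limma adjusted p = 0.0331). Its HCC827 values were 7.77, 6.95 and 8.26 in nc and 5.08, 4.83 and 5.42 in shSYK libraries, a fall to 66.7% (log2 fold change -0.50 ± 0.076 SE, limma adjusted p = 0.00263). EBC-1 had every shSYK library above every nc library, at 3.75, 3.46 and 3.99 in nc and 4.91, 4.60 and 4.07 in shSYK, without passing the test (log2 fold change 0.22, limma adjusted p = 0.0725). OAS3 (ENSG00000111331, chr12:112938352-112973249) read 7.96, 5.91 and 6.88 in nc and 4.14, 3.71 and 4.35 in shSYK libraries of PC-9. It fell to 58.8% of its nc mean (log2 fold change -0.64 ± 0.12 SE, limma adjusted p = 0.0484). It separated the groups in the opposite direction in EBC-1, at 21.7, 17.8 and 21.6 and 26.4, 26.2 and 22.4 (log2 fold change 0.29, limma adjusted p = 0.0533). In HCC827 OAS3 stood at 18.6, 18.6 and 20.1 and 17.98, 17.9 and 15.8 (log2 fold change -0.15, limma adjusted p = 0.126). Without nc replicate 1, the PC-9 log2 fold changes were -0.57 for OAS1 (limma adjusted p = 0.0212) and -0.54 for OAS3 (0.0289). The PC-9 call of OAS1 was lost without nc replicate 3 or any 1 shSYK library (limma adjusted p between 0.15 and 0.193), and without the filter (limma adjusted p = 0.0866). That of OAS3 was lost without nc replicate 3 or any 1 shSYK library (limma adjusted p between 0.166 and 0.224), and without the filter, with no variance trend or with the length trend removed (limma adjusted p between 0.0542 and 0.135).

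OASL (ENSG00000135114, chr12:121019111-121039242), a family member without synthetase activity that enhances RIG-I, fell in EBC-1 and HCC827. In EBC-1 it read 4.06, 4.46 and 5.13 FPKM in nc and 2.16, 1.68 and 2.82 in shSYK libraries, a fall to 48.8% of its nc mean (log2 fold change -0.80 ± 0.14 SE, limma adjusted p = 0.00386). HCC827 libraries read 1.18, 1.98 and 2.14 in nc and 0.569, 0.829 and 1.12 in shSYK, with the shSYK mean under 1 FPKM. OASL fell there to 47.5% of its nc mean (log2 fold change -0.58 ± 0.17 SE, limma adjusted p = 0.0341). The groups did not overlap in either line, and the HCC827 call was lost without nc replicate 2 or 3 or shSYK replicate 1 or 2 (limma adjusted p between 0.0842 and 0.101), and without the filter or with GC and length trends removed (limma adjusted p between 0.0806 and 0.112). PC-9 groups overlapped, at 4.81, 3.03 and 3.46 and 4.51, 4.28 and 5.13 (log2 fold change 0.26, limma adjusted p = 0.473). OAS2 was under the filter in EBC-1, where 2 to 8 reads lay on it in the nc libraries and 34 to 53 in the shSYK libraries. Those reads gave 0.0811, 0.101 and 0.0271 FPKM against 0.518, 0.464 and 0.481, and OAS2 was not tested there. In HCC827 its means were 1.92 ± 0.301 FPKM (SD, n = 3) for nc and 2.19 ± 0.175 for shSYK (log2 fold change 0.13, limma adjusted p = 0.338).

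The IFITM proteins, which block fusion of viruses with cell membranes, held the widest contrast between the lines. IFITM1 (ENSG00000185885, chr11:313506-315272) read 0.604, 0.586 and 0.628 FPKM in nc and 4.08, 3.96 and 4.02 in shSYK libraries of EBC-1, from between 8 and 72 reads per library. Each group lay close together and far from the other, and IFITM1 rose 6.63-fold (log2 fold change 1.64 ± 0.083 SE, limma adjusted p = 4.12e-05), the largest log2 fold change in size among the interferon-stimulated genes tested in any line. Its nc mean in EBC-1 was under 1 FPKM, so that it passed the filter through the shSYK group. In HCC827 IFITM1 read 9.99, 9.85 and 14.3 in nc and 5.56, 7.05 and 6.02 in shSYK libraries, without overlap. It fell there to 54.6% of its nc mean (log2 fold change -0.77 ± 0.14 SE, limma adjusted p = 0.0056). PC-9 libraries held 2 to 9 reads on it, 0.896, 0.717 and 0.533 FPKM in nc and 0.295, 0.147 and 0.547 in shSYK, and it was not tested there.

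IFITM3 read 111, 100.3 and 125 FPKM in nc and 79.7, 84.5 and 87.4 in shSYK libraries of HCC827, and fell to 74.7% of its nc mean (log2 fold change -0.41 ± 0.085 SE, limma adjusted p = 0.00828). It did not pass in EBC-1 (log2 fold change -0.13, limma adjusted p = 0.241) or PC-9 (log2 fold change 0.16, limma adjusted p = 0.744). IFITM2 rose in HCC827 from 0.269, 0.938 and 0.962 to 1.43, 1.52 and 1.60 FPKM (log2 fold change 0.57 ± 0.18 SE, limma adjusted p = 0.0383), on 3 to 27 reads and with an nc mean under the filter. That call was lost without any 1 shSYK library (limma adjusted p between 0.0735 and 0.105), and with the pseudocount of 0.1 (1.12 on the log2 scale) or without the filter (limma adjusted p between 0.0689 and 0.119), and without nc replicate 1 the log2 fold change was 0.37. The gene model of IFITM2 (chr11:307631-315272) covers that of IFITM1 on the same strand, and the IFITM genes are near-identical in part, so how reads were split between them is uncertain. BST2 (ENSG00000130303, chr19:17402939-17405648) had the largest fall of the interferon-stimulated genes tested in any line, in PC-9. It read 7.24, 5.07 and 4.89 FPKM in nc and 1.85, 2.33 and 2.29 in shSYK libraries there, without overlap. This was 37.7% of its nc mean (log2 fold change -1.08 ± 0.15 SE, limma adjusted p = 0.0189). Without nc replicate 1 the BST2 log2 fold change was -0.92 (limma adjusted p = 0.00625). The call was lost without nc replicate 3 or any 1 shSYK library (limma adjusted p between 0.0935 and 0.118), and without the filter (limma adjusted p = 0.0796). In HCC827 BST2 read 91.7, 94.7 and 101 and 95.8, 105 and 116, with overlap (log2 fold change 0.13, limma adjusted p = 0.214), and in EBC-1 it was under the filter.

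**Figure D3:**
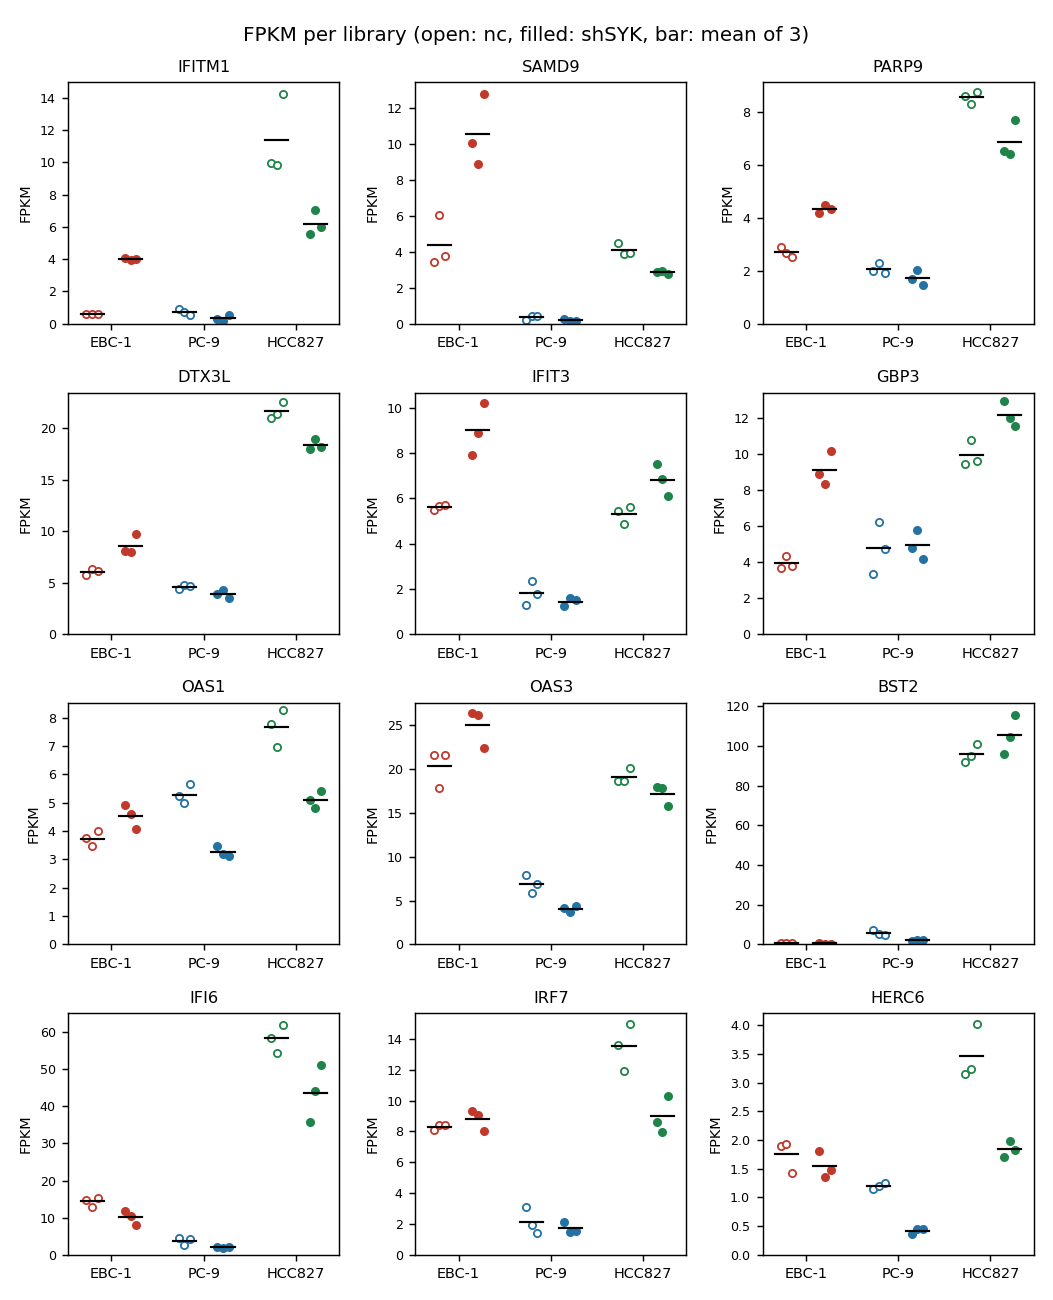
FPKM in every library for 12 interferon-stimulated genes (linear axes from 0, open circles nc, filled circles shSYK, bar the mean of 3 libraries). IFITM1, SAMD9, PARP9 and DTX3L have shSYK above nc in EBC-1 and below nc in HCC827, and OAS1, OAS3 and BST2 have shSYK below nc in PC-9.

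Of the genes around ISG15 conjugation, HERC6 alone passed the test. ISG15 had log2 fold changes of -0.14 (EBC-1), -0.19 (PC-9) and 0.079 (HCC827), with limma adjusted p between 0.295 and 0.739. UBE2L6 had -0.11, -0.32 and 0.20 (adjusted p between 0.232 and 0.358). USP18, which removes ISG15 and dampens interferon receptor signaling, had -0.34, -0.16 and -0.36 (adjusted p between 0.0557 and 0.698). HERC6 (ENSG00000138642, chr4:88378739-88443111), a ubiquitin ligase of the HECT class related to the ISG15 ligase HERC5, fell in HCC827. It read 3.15, 3.23 and 4.02 FPKM in nc and 1.71, 1.98 and 1.83 in shSYK libraries of HCC827. This was 53.1% of its nc mean (log2 fold change -0.65 ± 0.097 SE, limma adjusted p = 0.00245), a call kept under every alternative tried in which it was tested. In PC-9, where its mean over the 6 libraries was under the filter, it read 1.15, 1.203 and 1.26 in nc and 0.371, 0.451 and 0.442 in shSYK libraries, without overlap, and no test was made. EBC-1 libraries overlapped, at 1.89, 1.93 and 1.43 and 1.81, 1.36 and 1.47 (log2 fold change -0.11, limma adjusted p = 0.479).

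SAMD9 (ENSG00000205413, chr7:93099513-93118023) and SAMD9L (ENSG00000177409, chr7:93130055-93148369) are neighboring antiviral genes whose proteins restrict poxviruses. SAMD9 read 3.43, 6.04 and 3.75 FPKM in nc and 10.04, 8.90 and 12.8 in shSYK libraries of EBC-1, and rose 2.402-fold (log2 fold change 1.12 ± 0.19 SE, limma adjusted p = 0.00349). HCC827 libraries read 4.48, 3.90 and 3.93 in nc and 2.91, 2.94 and 2.79 in shSYK, and SAMD9 fell to 70.1% of its nc mean (log2 fold change -0.39 ± 0.073 SE, limma adjusted p = 0.00543). This fall lost its call in the fit of 18 libraries (limma adjusted p = 0.0607). The groups did not overlap in either line, and the nc means of the lines were 4.40 and 4.10 FPKM. SAMD9L read 1.48, 1.697 and 1.2 in nc and 2.704, 2.25 and 3.65 in shSYK libraries of EBC-1 and rose 1.96-fold without overlap (log2 fold change 0.64 ± 0.15 SE, limma adjusted p = 0.0112). The SAMD9L call was lost with GC and length trends removed (0.26 on the log2 scale) (limma adjusted p = 0.101). Its HCC827 libraries lay at 2.62, 2.49 and 2.38 and 2.31, 2.27 and 2.43, with overlap (log2 fold change -0.068, limma adjusted p = 0.497). Both genes were under the filter in PC-9, where SAMD9 read 0.194, 0.452 and 0.420 in nc and 0.279, 0.173 and 0.129 in shSYK libraries. Of the other restriction factors, SP100, a component of nuclear bodies, rose 1.30-fold in EBC-1 (log2 fold change 0.30 ± 0.092 SE, limma adjusted p = 0.0335). This call was lost without nc replicate 1 or 3 or any 1 shSYK library (limma adjusted p between 0.0583 and 0.114), and without the filter or with the length trend removed (0.15 on the log2 scale) (limma adjusted p between 0.0869 and 0.171). Its direction turned when the trends on GC content and gene length were removed (-0.062). MX1, a GTPase that traps viral particles, was under the filter in EBC-1 and read 4.90, 4.33 and 6.61 in nc and 3.54, 3.82 and 4.09 in shSYK libraries of HCC827 (log2 fold change -0.37, limma adjusted p = 0.0587).

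PARP9 (ENSG00000138496, chr3:122527924-122564577, minus strand) and DTX3L (ENSG00000163840, chr3:122564238-122575203, plus strand) encode an ADP-ribosyltransferase and a ubiquitin ligase that form 1 complex, and they share a start region with the ISRE core shown above. PARP9 read 2.91, 2.67 and 2.52 FPKM in nc and 4.19, 4.49 and 4.33 in shSYK libraries of EBC-1, and rose 1.60-fold (log2 fold change 0.53 ± 0.077 SE, limma adjusted p = 0.00176). The HCC827 values were 8.61, 8.30 and 8.76 and 6.52, 6.41 and 7.69, and PARP9 fell to 80.3% of its nc mean (log2 fold change -0.28 ± 0.075 SE, limma adjusted p = 0.0222). DTX3L read 5.75, 6.27 and 6.14 in nc and 8.09, 7.94 and 9.69 in shSYK libraries of EBC-1, and rose 1.42-fold (log2 fold change 0.44 ± 0.088 SE, limma adjusted p = 0.00642). HCC827 values were 21.0, 21.4 and 22.5 and 17.98, 18.9 and 18.1, and DTX3L fell to 84.9% (log2 fold change -0.23 ± 0.053 SE, limma adjusted p = 0.0137). No groups overlapped in these 4 comparisons. PC-9 read 1.99, 2.31 and 1.91 and 1.68, 2.05 and 1.48 for PARP9 (log2 fold change -0.17, limma adjusted p = 0.575). There DTX3L read 4.37, 4.79 and 4.69 and 3.86, 4.24 and 3.54 (log2 fold change -0.21, limma adjusted p = 0.365). The PARP9 call in HCC827 was lost without nc replicate 1 or 3 or shSYK replicate 1 or 2 (limma adjusted p between 0.0603 and 0.0753), and without the filter or with TPM rescaling (limma adjusted p between 0.0587 and 0.0655). That of DTX3L was lost with quantile normalization (-0.14 on the log2 scale) (limma adjusted p = 0.0562). PARP14, a related gene nearby, had log2 fold changes of 0.21 (EBC-1), -0.22 (PC-9) and -0.0047 (HCC827) and passed in none (adjusted p between 0.209 and 0.956). The gene models of PARP9 and DTX3L overlap at their starts on opposite strands, and the sources used here do not say whether reads were counted by strand, so reads from the overlap cannot be told apart.

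The guanylate-binding proteins, GTPases induced most strongly by interferon gamma that attack membranes around intracellular pathogens, rose in EBC-1, all 3 of them. GBP3 (ENSG00000117226, chr1:89006666-89022894) read 3.70, 4.33 and 3.81 FPKM in nc and 8.91, 8.32 and 10.2 in shSYK libraries of EBC-1, and rose 2.32-fold (log2 fold change 1.03 ± 0.092 SE, limma adjusted p = 0.000299). HCC827 libraries read 9.43, 10.8 and 9.63 in nc and 12.9, 11.99 and 11.5 in shSYK, a 1.22-fold rise (log2 fold change 0.27 ± 0.07 SE, limma adjusted p = 0.0217). The call was lost without nc replicate 1 or 3 or shSYK replicate 1 or 2 (limma adjusted p between 0.0557 and 0.0721), and without the filter, with GC and length trends removed (0.14 on the log2 scale) or in the fit of 18 libraries (limma adjusted p between 0.0528 and 0.181). PC-9 nc libraries spread from 3.35 to 6.25 and enclosed the shSYK libraries at 4.802, 5.79 and 4.20 (log2 fold change 0.062, limma adjusted p = 0.931). GBP1 (ENSG00000117228, chr1:89052319-89065360) read 2.03, 2.51 and 2.21 in nc and 2.99, 2.89 and 3.11 in shSYK libraries of EBC-1, and rose 1.33-fold (log2 fold change 0.30 ± 0.087 SE, limma adjusted p = 0.026). The HCC827 values were 2.69, 3.79 and 3.81 and 5.05, 6.07 and 5.91, and GBP1 rose 1.66-fold (log2 fold change 0.60 ± 0.12 SE, limma adjusted p = 0.0073). Neither pair of groups overlapped, and the EBC-1 call was lost without nc replicate 1 or 3 or any 1 shSYK library (limma adjusted p between 0.0585 and 0.0933), and without the filter or with GC and length trends removed (0.018 on the log2 scale) (limma adjusted p between 0.067 and 0.846). PC-9 read 2.88, 3.29 and 2.79 in nc and 2.78, 2.22 and 2.704 in shSYK, all shSYK libraries below all nc libraries (log2 fold change -0.16, limma adjusted p = 0.551).

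GBP2 (ENSG00000162645, chr1:89106132-89150456) read 4.28, 5.17 and 4.82 FPKM in nc and 6.90, 6.92 and 6.84 in shSYK libraries of EBC-1, and rose 1.45-fold without overlap (log2 fold change 0.46 ± 0.078 SE, limma adjusted p = 0.00334). Its HCC827 libraries overlapped, at 6.02, 6.47 and 7.85 and 6.203, 6.19 and 6.87 (log2 fold change -0.062, limma adjusted p = 0.636). In PC-9 every shSYK library lay above every nc library, at 10.3, 9.55 and 9.40 and 11.02, 12.5 and 11.3, without passing the test (log2 fold change 0.23, limma adjusted p = 0.314). The GBP genes lie side by side on chromosome 1 and share sequence, so reads that fit more than 1 of them are uncertain.

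The remaining induced genes split by member. IFI44L (ENSG00000137959, chr1:78619922-78646145) read 1.18, 1.24 and 1.14 FPKM in nc and 2.94, 2.86 and 2.58 in shSYK libraries of EBC-1, and rose 2.36-fold (log2 fold change 0.80 ± 0.089 SE, limma adjusted p = 0.000673). In HCC827 it read 2.11, 1.90 and 1.94 and 2.64, 2.64 and 2.91, again without overlap. It rose 1.38-fold there (log2 fold change 0.32 ± 0.077 SE, limma adjusted p = 0.0146), a call lost without shSYK replicate 3 (limma adjusted p = 0.054), and with GC and length trends removed (0.13 on the log2 scale) (limma adjusted p = 0.175). IFI44, its neighbor, read 7.15, 9.05 and 6.16 in nc and 13.0, 11.03 and 17.1 in shSYK libraries of EBC-1, a 1.84-fold rise (log2 fold change 0.79 ± 0.17 SE, limma adjusted p = 0.00889). Its groups overlapped in HCC827 (log2 fold change 0.21, limma adjusted p = 0.162). IFI6 (ENSG00000126709, chr1:27666061-27672218), a mitochondrial protein that delays cell death, had every shSYK library below the lowest nc library in all 3 lines. It read 14.8, 13.0 and 15.4 in nc and 11.8, 10.48 and 8.07 in shSYK libraries of EBC-1. There it fell to 70.4% of its nc mean (log2 fold change -0.48 ± 0.13 SE, limma adjusted p = 0.0217). In HCC827 it read 58.5, 54.3 and 62.0 and 35.9, 44.1 and 51.1, and fell to 75.0% (log2 fold change -0.42 ± 0.12 SE, limma adjusted p = 0.03). In PC-9 it read 4.47, 2.69 and 4.32 and 2.03, 1.92 and 2.05, 52.2% of the nc mean, and did not pass (log2 fold change -0.66, limma adjusted p = 0.0945). The IFI6 call in EBC-1 was lost without nc replicate 1 or 3 (limma adjusted p between 0.0678 and 0.0728), and without the filter or with GC and length trends removed (-0.25 on the log2 scale) (limma adjusted p between 0.0741 and 0.0916). That in HCC827 was lost without nc replicate 1 or 3 or shSYK replicate 2 (limma adjusted p between 0.0713 and 0.0832), and without the filter, with quantile normalization, with GC and length trends removed or in the fit of 18 libraries (limma adjusted p between 0.0529 and 0.0989). IFI27 went from 38.1, 36.8 and 49.7 in nc to 27.6, 28.3 and 33.3 in shSYK libraries of HCC827. It fell to 71.6% of its nc mean (log2 fold change -0.46 ± 0.12 SE, limma adjusted p = 0.0219), a call lost without shSYK replicate 1 or 2 (limma adjusted p between 0.0649 and 0.0718), and without the filter (limma adjusted p = 0.0777). IFI35 (log2 fold changes from -0.079 to 0.11 over the 3 lines) and EPSTI1 in HCC827 (log2 fold change 0.30, limma adjusted p = 0.0531) did not pass.

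Log2 fold changes also moved by more than 1.5 times where the call held. With the trends on GC content and length removed, those in EBC-1 were 0.69 for SAMD9, 0.47 for DDX58, 0.34 for IFI44L, 0.27 for PARP9, 0.26 for DTX3L, 0.20 for GBP2 and -0.30 for DHX58, and that of IFITM3 in HCC827 was -0.24, all closer to 0. limma-voom, which adds no 1 FPKM, gave values farther from 0, in EBC-1 2.75 for IFITM1, 1.33 for IFI44L, 1.24 for DDX58, 1.05 for SAMD9L, 0.93 for IFIH1, 0.51 for GBP1 and 0.47 for SP100. In HCC827 it gave -1.06 for OASL, 1.16 for IFITM2, 0.54 for IFI44L and 0.41 for DDX58. Among pathway genes, removing the same trends gave 0.21 for TBK1 and 0.73 for SOCS3 in EBC-1, and -0.38 for SOCS3, -0.27 for TYK2, -0.37 for IKBKE, 0.29 for PTPN2 and -0.40 for EIF2AK2 in HCC827.

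The responses themselves were compared between lines with limma on the 12 libraries of each pair, over genes tested in both lines, as the difference of the log2 fold changes. SYK itself fell less in EBC-1 (-0.85) than in HCC827 (-1.34), a difference of 0.49 (95% interval 0.22 to 0.77, limma adjusted p = 0.0124). Cell line and depth of knockdown therefore cannot be told apart in this pair. Between EBC-1 and PC-9 the SYK difference was 0.44 (limma adjusted p = 0.0716). By count, EBC-1 and HCC827 differed for the most interferon-stimulated genes of the 3 pairs, and the share over all genes was largest there too. The shares of interferon-stimulated genes were 45.5% for EBC-1 and HCC827 and 34.6% for EBC-1 and PC-9, against 30% and 13.6% of all genes. The responses differed for 15 of 33 interferon-stimulated genes, against 30% of all 10691 genes, and for 14 of the 15 the EBC-1 response was the higher one, with opposite signs for 11. Of these 11, only 4 were called in both lines, and some lay near no change in HCC827, such as IFIH1 at -0.0026. The shares of all genes with a higher EBC-1 response or opposite signs were not counted. The largest differences were 2.41 (95% interval 2.05 to 2.77, limma adjusted p = 2.37e-06) for IFITM1 and 1.51 (95% interval 1.03 to 1.99, limma adjusted p = 0.000428) for SAMD9. IFITM1 passed the filter in EBC-1 only through its shSYK libraries, so that it could enter this comparison only by being high there. PARP9 gave 0.81 (95% interval 0.58 to 1.04, limma adjusted p = 0.000181) and DTX3L 0.66 (95% interval 0.44 to 0.88, limma adjusted p = 0.00062). SAMD9, PARP9 and DTX3L rose in EBC-1 and fell in HCC827, as 1.69% of all genes did. IFITM1 did so too and makes the count 4 of 33, but with that limit it adds no support. The reverse, a fall in EBC-1 and a rise in HCC827, was found for 0 of 33 with limma, against 1.57% of all genes, and for 0 also at an unadjusted p under 0.05 and with limma-voom. A rise in both lines was found for 5 (IFIT3, IFI44L, DDX58, GBP1 and GBP3), against 8.64%, and a fall in both for 2 (IFI6 and OASL), against 8.52%. Among genes called in 1 of these lines or in neither, the difference was 0.72 (95% interval 0.47 to 0.98, limma adjusted p = 0.000787) for OAS1 and 0.71 (95% interval 0.40 to 1.03, limma adjusted p = 0.00359) for DDX60. SAMD9L gave 0.71 (95% interval 0.34 to 1.08, limma adjusted p = 0.00812) and IRF7 0.61 (95% interval 0.32 to 0.91, limma adjusted p = 0.0055).

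Further differences between EBC-1 and HCC827 were 0.77 (95% interval 0.51 to 1.02, limma adjusted p = 0.000612) for GBP3 and 0.54 (95% interval 0.21 to 0.87, limma adjusted p = 0.0186) for HERC6. GBP2 gave 0.52 (95% interval 0.25 to 0.79, limma adjusted p = 0.00894) and IFIH1 0.52 (95% interval 0.25 to 0.78, limma adjusted p = 0.00784). For IFI44L the difference was 0.47 (95% interval 0.25 to 0.70, limma adjusted p = 0.00564), and for OAS3 it was 0.43 (95% interval 0.16 to 0.71, limma adjusted p = 0.0224). IRF1 was the exception in direction, with -0.41 (95% interval -0.62 to -0.19, limma adjusted p = 0.00997). The IFI44L difference was lost with GC and length trends removed (0.21 on the log2 scale) (limma adjusted p = 0.203). The OAS3 difference was lost without EBC-1 shSYK replicate 1 or 2, HCC827 nc replicate 3 or HCC827 shSYK replicate 3 (limma adjusted p between 0.0511 and 0.0565), and with the length trend removed (limma adjusted p = 0.0639).

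**Figure D4:**
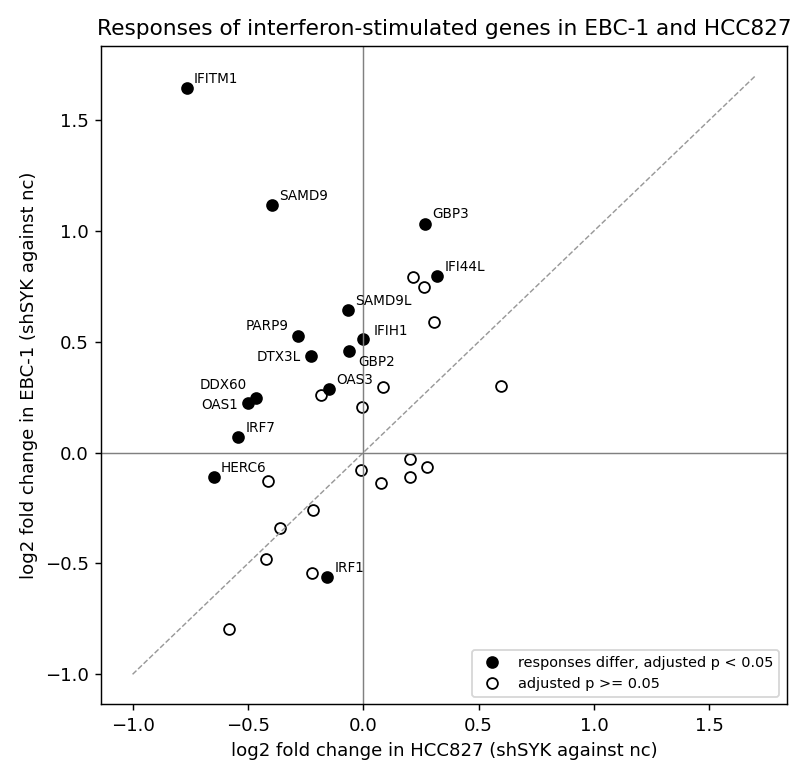
log2 fold change of each interferon-stimulated gene tested in both lines, HCC827 on the x axis and EBC-1 on the y axis (33 genes, filled where the responses differed at limma adjusted p under 0.05, dashed line equal responses). Of the 15 filled points, 14 lie above the line, with IFITM1 at -0.77 and 1.64 farthest from it, and IRF1 lies below.

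EBC-1 and PC-9 differed for 9 of 26 genes, against 13.6% of all 10627 genes, 8 of them with the higher response in EBC-1. The share of all genes with the higher response in EBC-1 was not counted for this pair either. Among these were OAS3 with 0.92 (95% interval 0.57 to 1.28, limma adjusted p = 0.00378) and GBP3 with 0.97 (95% interval 0.47 to 1.47, limma adjusted p = 0.0169). DDX58 gave 0.91 (95% interval 0.44 to 1.37, limma adjusted p = 0.0169) and OAS1 gave 0.78 (95% interval 0.52 to 1.05, limma adjusted p = 0.00166). IFIT3 gave 0.78 (95% interval 0.37 to 1.18, limma adjusted p = 0.0177) and GBP1 0.46 (95% interval 0.18 to 0.75, limma adjusted p = 0.0386). The neighbors gave 0.70 (95% interval 0.40 to 0.99, limma adjusted p = 0.00641) for PARP9 and 0.64 (95% interval 0.37 to 0.92, limma adjusted p = 0.0068) for DTX3L. OASL was lower in EBC-1, with -1.05 (95% interval -1.52 to -0.58, limma adjusted p = 0.00887). The GBP1 difference from PC-9 was lost without EBC-1 nc replicate 1 or 3, any 1 EBC-1 shSYK library, PC-9 nc replicate 2 or 3 or any 1 PC-9 shSYK library (limma adjusted p between 0.0517 and 0.102), and without the filter or with GC and length trends removed (0.23 on the log2 scale) (limma adjusted p between 0.0639 and 0.233). PC-9 and HCC827 differed for 2 of 28 genes, against 3.05% of all 10594 genes. BST2 gave -1.21 (95% interval -1.60 to -0.82, limma adjusted p = 0.00341) and GBP1 -0.76 (95% interval -1.12 to -0.40, limma adjusted p = 0.0281). That of GBP1 was lost without PC-9 nc replicate 3, any 1 PC-9 shSYK library, HCC827 nc replicate 1 or HCC827 shSYK replicate 2 or 3 (limma adjusted p between 0.0533 and 0.0822). Without nc replicate 1 of PC-9, the counts were 11 for EBC-1 and PC-9 and 6 for PC-9 and HCC827, and all 9 and 2 differences named here passed. They were then 0.83 for OAS3, 1.16 for GBP3, 0.87 for DDX58, 0.79 for OAS1, 0.92 for IFIT3, 0.48 for GBP1, 0.71 for PARP9, 0.67 for DTX3L and -1.20 for OASL against EBC-1. Against HCC827 they were -1.06 for BST2 and -0.78 for GBP1. The count for PC-9 and HCC827 was 4 without PC-9 nc replicate 2, and 1 without PC-9 nc replicate 3, any 1 PC-9 shSYK library, or HCC827 shSYK replicate 2 or 3. These comparisons share libraries with each other, since each line enters 2 of them.

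Genes upstream of the response were read from a list of 39 (ligands, receptors, kinases, inhibitors, nucleic acid sensors and their adaptors, and genes of double-stranded RNA control). The 12 interferon genes on this list, which does not hold every interferon gene, had few reads or none. Of these, 7 were at 0 reads in all 18 libraries, and the others had no more than 6 reads in any library. Of the genes tested, 7 of 23 rose and 6 fell in EBC-1, 1 of 24 rose and 1 fell in PC-9, and 3 of 24 rose and 9 fell in HCC827. The shares of all genes tested that rose and fell were 23.1% and 21.6% in EBC-1, 0.678% and 1.41% in PC-9, and 17.2% and 20.7% in HCC827. IL10RB, a chain of the receptor for lambda interferons and for interleukin 10, fell in all 3 lines and was the only 1 of the 39 to do so. It read 2.84, 2.80 and 2.59 FPKM in nc and 0.875, 1.05 and 1.08 in shSYK libraries of EBC-1, 36.6% of the nc mean (log2 fold change -0.90 ± 0.094 SE, limma adjusted p = 0.0005). In PC-9 it read 3.93, 3.69 and 3.67 and 0.876, 1.32 and 1.56, 33.3% (log2 fold change -1.09 ± 0.13 SE, limma adjusted p = 0.0132). In HCC827 it read 4.96, 4.96 and 5.14 and 1.41, 2.17 and 1.45, 33.4% (log2 fold change -1.18 ± 0.11 SE, limma adjusted p = 0.000461). The groups did not overlap in any line, and the PC-9 call was lost without nc replicate 3 or any 1 shSYK library (limma adjusted p between 0.0509 and 0.0971), and without the filter (limma adjusted p = 0.0648). Without nc replicate 1 of PC-9, the IL10RB log2 fold change there was -1.07 (limma adjusted p = 0.0105). Every line carried the same shRNA, so loss of SYK and another effect of that shRNA cannot be told apart for IL10RB.

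IFNGR1, the ligand-binding chain of the interferon gamma receptor, read 14.0, 19.2 and 15.04 FPKM in nc and 38.2, 37.2 and 39.4 in shSYK libraries of EBC-1 without overlap. It rose 2.38-fold (log2 fold change 1.21 ± 0.11 SE, limma adjusted p = 0.000333). It also rose in PC-9, from 17.1, 23.5 and 18.8 to 38.3, 40.5 and 32.7 (log2 fold change 0.88 ± 0.15 SE, limma adjusted p = 0.0331). The PC-9 call was lost without nc replicate 3 or any 1 shSYK library (limma adjusted p between 0.104 and 0.186), and without the filter, with TPM rescaling, with quantile normalization or with the length trend removed (limma adjusted p between 0.0512 and 0.0925). Without nc replicate 1 it was 0.79 (limma adjusted p = 0.019). HCC827 overlapped, at 7.26, 8.11 and 9.64 and 7.16, 9.18 and 7.59. The response in EBC-1 exceeded that in HCC827 by 1.27 (95% interval 0.90 to 1.64, limma adjusted p = 0.000255). The other receptor chains passed in EBC-1 only, with 0.39 for IFNAR1, -0.49 for IFNGR2 and -0.39 for IFNLR1, and IFNAR2 passed in no line. SOCS3, a feedback inhibitor of JAK kinases, rose 1.38-fold in EBC-1 (log2 fold change 0.44 ± 0.13 SE, limma adjusted p = 0.0248). It fell to 64.7% of its nc mean in HCC827 (log2 fold change -0.60 ± 0.078 SE, limma adjusted p = 0.00139), a difference of 1.05 (95% interval 0.70 to 1.39, limma adjusted p = 0.000515) between these lines. The SOCS3 call in EBC-1 was lost without nc replicate 1 or shSYK replicate 1 or 2 (limma adjusted p between 0.0526 and 0.0777), and without the filter (limma adjusted p = 0.0805). That of IFNAR1 was lost without any 1 nc library or shSYK replicate 1 or 3 (limma adjusted p between 0.0602 and 0.133), and without the filter, with quantile normalization, with the length trend removed or with GC and length trends removed (0.17 on the log2 scale) (limma adjusted p between 0.0522 and 0.279).

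EIF2AK2 (PKR), a kinase that stops translation on double-stranded RNA, rose in EBC-1 (log2 fold change 0.37, limma adjusted p = 0.0069) and fell in HCC827 (log2 fold change -0.22, limma adjusted p = 0.0154). Its EBC-1 direction turned when trends on GC content and gene length were removed (-0.058). The kinases gave -0.39 for JAK1 in EBC-1 and -0.44 for TYK2 in HCC827. Among sensors and adaptors, STING1 fell in EBC-1 (log2 fold change -0.34, limma adjusted p = 0.00435) and HCC827 (log2 fold change -0.80, limma adjusted p = 0.00136), and so did MAVS, the adaptor of RIG-I and MDA5 (-0.39 and -0.35). TBK1, the kinase downstream of both, rose in the same lines (0.59 and 0.27), while in HCC827 IKBKE, its relative, fell by 0.56 and IRF3, its target, fell by 0.31 on the log2 scale. CGAS, the sensor of cytoplasmic DNA, rose in HCC827 (0.31), where ADAR, which edits double-stranded RNA, fell (-0.28). The phosphatase gene PTPN2 rose in EBC-1 (0.53) and HCC827 (0.44), and PIAS1 was at the threshold in EBC-1 (log2 fold change 0.24, limma adjusted p = 0.0499), where removing the trends on GC content and gene length gave -0.17. Removing the GC and length trends also ended the EBC-1 calls of PTPN2 (0.18) and STING1 (-0.13) and the HCC827 calls of TBK1 (0.12) and IRF3 (-0.12), and the fit of 18 libraries ended the last 2. Single libraries decided the calls of JAK1 and PIAS1 in EBC-1 and of CGAS and EIF2AK2 in HCC827. The JAK1 call was lost without shSYK replicate 1 or 2 (limma adjusted p between 0.0695 and 0.0773), and without the filter, with TPM rescaling or with quantile normalization (limma adjusted p between 0.0724 and 0.121). PIAS1 lost its call without nc replicate 1 or 3 or any 1 shSYK library (limma adjusted p between 0.107 and 0.148), and without the filter, with quantile normalization, with the length trend removed (0.11 on the log2 scale) or in the fit of 18 libraries (limma adjusted p between 0.0581 and 0.267). CGAS lost it without nc replicate 1 or 2 or shSYK replicate 1 (limma adjusted p between 0.0525 and 0.0621), and without the filter or with GC and length trends removed (limma adjusted p between 0.0598 and 0.0669) and EIF2AK2 without nc replicate 1 or shSYK replicate 2 (limma adjusted p between 0.0529 and 0.0539), and with TPM rescaling or in the fit of 18 libraries (limma adjusted p between 0.0722 and 0.142).

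**Figure D5:**
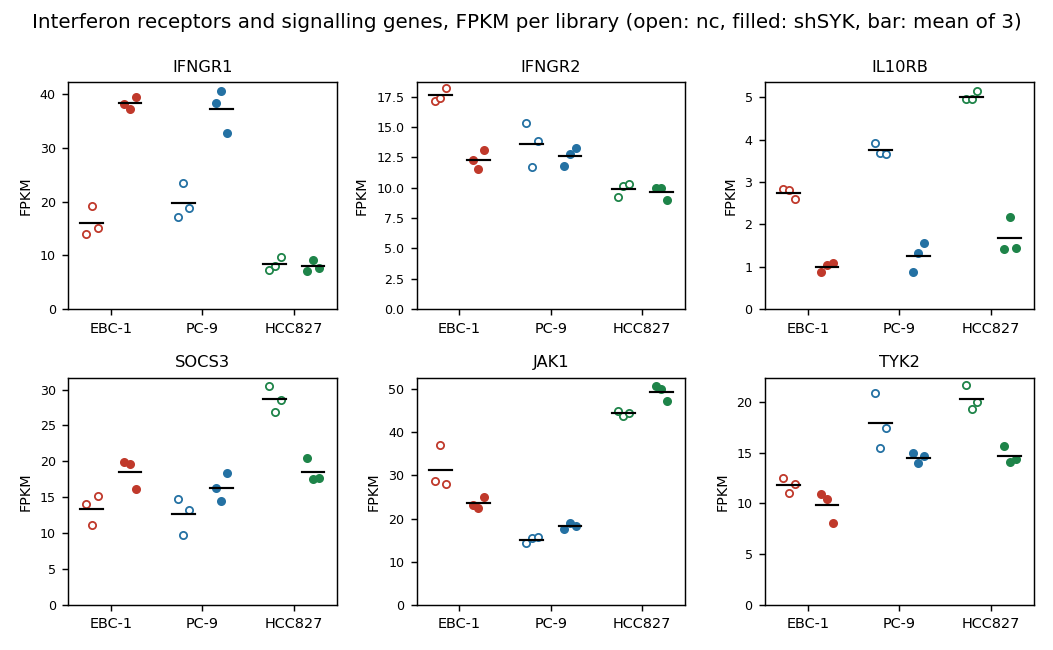
FPKM in every library for 6 genes of interferon receptors and signaling (linear axes from 0, open circles nc, filled circles shSYK, bar the mean of 3 libraries). IL10RB is lower in every shSYK library of each line, IFNGR1 is higher in the shSYK libraries of EBC-1 and PC-9, and SOCS3 rose in EBC-1 and fell in HCC827.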

How the data were processed

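RNA from 18 libraries (3 nc and 3 shSYK libraries for each of EBC-1, PC-9 and HCC827) was sequenced on an Illumina HiSeq. The authors deposited FPKM per gene in 1 table per line, and the submitters' processing notes name CASAVA, HISAT2 and hg38, without versions. The counting program, the annotation, the strand setting and the FPKM denominator are not given in the sources used here, and 0 columns belonged to other samples. FPKM multiplied by gene length gave whole reads for 100% of values (within 0.01), 7920099 to 15729103 per library, which limits precision for genes near the filter.

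Groups and replicate numbers came from the labels. The 47 genes and the gene lists were chosen with earlier results of these data known, and 1 gene of the pathway is not reported here. Genes with a mean of at least 1 FPKM over the 6 libraries of a line were tested with limma 3.58.1 (R 4.3.3, variance trend) on log2(FPKM + 1), with Benjamini-Hochberg adjustment over all genes tested and a threshold of 0.05. Differences between lines were tested with limma on the 12 libraries of a pair, over genes tested in both. Values in every library were to be given for genes called in 2 or 3 lines, for the 3 largest changes in each line, and for genes whose responses differed with opposite signs, whereas pathway genes were to be named where called in at least 1 line. Alternatives were a smaller pseudocount (0.1), dropping the filter or raising it to 5 FPKM, TPM scaling, quantile normalization, no variance trend, the replicate number as a block, limma-voom on recovered reads, a gene length trend removed within libraries (lowess, span 0.3), 1 fit of all 18 libraries, and each library left out. Removal of gene length and GC content trends together was added after seeing the data. The procedure was tested on simulated data. Promoter windows came from RefSeq (GRCh38.p14) and were searched with Python 3.11.15. Replicates of a group differed by more than sampling noise (chi-square over its degrees of freedom at least 2.11), so none was merged.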

Additional observations from a re-analysis of the deposited data

Results flagged for a closer look

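The results below are responses to SYK knockdown (log2 fold change of shSYK against nc) that differed between 2 lines by a limma test of the difference at an adjusted p under 0.05. Groups of 3 libraries are too small for a check of single libraries that stand far from the others.

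Between EBC-1 and HCC827, the response was higher in EBC-1 by 2.41 for IFITM1, 1.51 for SAMD9, 0.81 for PARP9, 0.77 for GBP3, 0.72 for OAS1, 0.71 for DDX60 and 0.71 for SAMD9L. It was higher by 0.66 for DTX3L, 0.61 for IRF7, 0.54 for HERC6, 0.52 for GBP2, 0.52 for IFIH1, 0.47 for IFI44L and 0.43 for OAS3. For IRF1 the difference was -0.41, with the lower response in EBC-1.

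Among pathway genes, the EBC-1 response exceeded that of HCC827 by 1.27 for IFNGR1, 1.05 for SOCS3, 0.59 for EIF2AK2, 0.46 for STING1 and 0.24 for ADAR. The differences were -0.53 for JAK1, -0.45 for IFNGR2 and -0.38 for IRF2. The ADAR difference was lost without EBC-1 nc replicate 1 or 3, EBC-1 shSYK replicate 1 or 2, HCC827 nc replicate 1 or 3 or HCC827 shSYK replicate 3 (limma adjusted p between 0.0578 and 0.0764). It was also lost with quantile normalization or with the length trend removed (limma adjusted p between 0.0506 and 0.0897). The IRF2 difference was lost without EBC-1 nc replicate 1 or 3, EBC-1 shSYK replicate 1, HCC827 nc replicate 1 or HCC827 shSYK replicate 2 (limma adjusted p between 0.0508 and 0.0539).

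Between EBC-1 and PC-9, the response was higher in EBC-1 by 0.97 for GBP3, 0.92 for OAS3, 0.91 for DDX58, 0.78 for OAS1, 0.78 for IFIT3, 0.70 for PARP9, 0.64 for DTX3L and 0.46 for GBP1. It was lower in EBC-1 for OASL (-1.05), JAK1 (-0.65) and IRF2 (-0.41). That of IRF2 was lost without EBC-1 nc replicate 1 or 3, EBC-1 shSYK replicate 1 or 3 or PC-9 shSYK replicate 1 or 2 (limma adjusted p between 0.0529 and 0.0646). TPM rescaling and limma-voom each ended the IRF2 difference (limma adjusted p 0.108 and 0.0903) and the JAK1 difference (0.0767 and 0.0524). Without nc replicate 1 of PC-9 the differences were -0.61 for JAK1 and -0.42 for IRF2.

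Between PC-9 and HCC827, the difference was -1.21 for BST2 and -0.76 for GBP1, with the lower response in PC-9, and 0.94 for IFNGR1 and 0.97 for SOCS3, with the higher response in PC-9. The IFNGR1 difference was lost without PC-9 nc replicate 3, PC-9 shSYK replicate 1 or 2, HCC827 nc replicate 3 or HCC827 shSYK replicate 1 or 3 (limma adjusted p between 0.0569 and 0.0655). It was also lost with TPM rescaling, quantile normalization or limma-voom (limma adjusted p between 0.0577 and 0.0872). The SOCS3 difference was lost without HCC827 nc replicate 1 or shSYK replicate 2 (limma adjusted p between 0.0509 and 0.0532). Without nc replicate 1 of PC-9 the differences were 0.84 for IFNGR1 and 1.08 for SOCS3.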

How the results depend on the processing

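Calls of interferon-stimulated genes held under every alternative for 14 of 18 genes (EBC-1), 5 of 19 (HCC827) and 0 of 3 (PC-9), and for 13 of 15 differences between EBC-1 and HCC827, 8 of 9 between EBC-1 and PC-9 and 1 of 2 between PC-9 and HCC827, not counting settings in which a gene was not tested. Some alternative added a call for 10 genes (EBC-1), 9 (HCC827) and 3 (PC-9). Where values moved, the cause was not tested, except that a filter at 5 FPKM tests fewer genes. Depth limits genes near 1 FPKM.

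In EBC-1 the filter at 5 FPKM gave 3579 called genes (5562 with the filter at 1) and 7 interferon-stimulated genes that rose (14). Their median log2 fold change in EBC-1 (0.25) was 0.30 with the smaller pseudocount, 0.070 without a filter, 0.21 with the filter at 5 FPKM, 0.36 with TPM scaling, 0.21 with quantile normalization, 0.39 with limma-voom, 0.19 with the gene length trend removed and 0.16 with the GC trend removed as well, the alternative chosen after seeing the data. In PC-9 the number of called genes (253) was 47 without a filter, 491 with TPM scaling, 505 with quantile normalization, 485 with limma-voom, 970 with both trends removed and 1511 in the fit of all 18 libraries. The 3 falls in PC-9 became 0 without a filter, 1 with the filter at 5 FPKM, and 5 with both trends removed or with all 18 libraries in 1 fit. The PC-9 median (-0.16) was -0.22 with the smaller pseudocount, -0.10 without a filter and -0.25 with limma-voom. In HCC827 the 6 rises became 2 without a filter, 2 with the filter at 5 FPKM and 11 with limma-voom, and the 13 falls became 8 without a filter. The HCC827 median (-0.074) was -0.012 without a filter and -0.18 with the filter at 5 FPKM. Responses that differed numbered 1 between EBC-1 and PC-9 (9), 5 between EBC-1 and HCC827 (15) and 0 between PC-9 and HCC827 (2) with the filter at 5 FPKM, and for PC-9 and HCC827 they numbered 4 with TPM scaling, 5 with quantile normalization, 4 with limma-voom and 7 with both trends removed. With both trends removed, the EBC-1 log2 fold changes turned to -0.062 for SP100, -0.17 for PIAS1 and -0.058 for EIF2AK2. TPM scaling left 24 genes highest in HCC827 (28).

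With 1 library left out, called genes ranged from 3802 to 6292 in EBC-1, from 8 (without shSYK replicate 1) to 624 (without nc replicate 1) in PC-9 and from 3365 to 3974 in HCC827. In PC-9 they also numbered 500 without nc replicate 2, 17 without nc replicate 3, 16 without shSYK replicate 2 and 20 without shSYK replicate 3. Rises ranged from 12 to 17 (EBC-1), 0 to 0 (PC-9) and 2 to 5 (HCC827), and falls from 3 to 4, 0 to 5 and 9 to 13. The medians ranged from 0.19 to 0.35 (EBC-1), from -0.19 to -0.11 (PC-9) and from -0.12 to -0.053 (HCC827). Differences ranged from 8 to 11 (EBC-1 and PC-9), 14 to 19 (EBC-1 and HCC827) and 1 to 6 (PC-9 and HCC827).

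The replicate numbers share no stated litter, batch or day, and the correlations of same-numbered deviations ran from -0.22 to 0.33, with 1 of 9 over 0.1, so the numbers were not taken as pairs. With the replicate number as a block, called genes were 4326 (EBC-1), 172 (PC-9) and 4111 (HCC827). Under the block, 12 genes rose and 4 fell in EBC-1, 0 rose and 1 fell in PC-9, and 5 rose and 15 fell in HCC827, and 8, 14 and 3 responses differed between EBC-1 and PC-9, EBC-1 and HCC827, and PC-9 and HCC827. Calls lost under the block are not listed with the genes above. They were SP100, GBP1, IFNAR1, JAK1, SOCS3 and PIAS1 in EBC-1, DDX58 in HCC827, and OAS1 and OAS3 in PC-9 (limma adjusted p between 0.0545 and 0.101). Differences lost were those of OAS3, IRF2 and ADAR between EBC-1 and HCC827, and of GBP1 and IRF2 between EBC-1 and PC-9 (limma adjusted p between 0.06 and 0.11).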
